A study of Mus musculus with 8 samples.

Results

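Mitochondrial ribosomal protein genes encode the proteins of the mitoribosome, the ribosome inside mitochondria, and 74 of them were measured in the gastrocnemius, a calf muscle, of mice without AMPKα1 or AMPKα2 (KO mice) and of wild-type (WT) mice. They were chosen by name: every protein coding gene of the deposited table whose symbol begins with Mrpl or Mrps followed by a digit. These were 74 of 15378 genes, with 150 of the 56483 polyadenylation sites (APSs) in the table. By symbol, 46 belong to the large subunit (Mrpl) and 28 to the small subunit (Mrps). Another 3 sites with such symbols are annotated as pseudogenes and were left out. Whole transcriptome termini site sequencing (WTTS-seq) begins each read at the poly(A) tail of an RNA, so that a read marks one RNA end and the counts do not grow with transcript length.

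There were 4 groups of 2 male mice each, with 1 library per mouse: AMPKα1 KO, AMPKα1 WT, AMPKα2 KO and AMPKα2 WT. AMPKα1 KO mice (AMPKα1-/-) were homozygous knockouts of Prkaa1 and AMPKα2 KO mice (AMPKα2-/-) of Prkaa2, the genes of the catalytic α subunits of the energy sensor AMPK. The labels give C57BL/6 as the background of all 8 mice, adult age and skeletal muscle as the tissue, while the study's methods give 129S2/SvPas and about 6 weeks for the AMPKα1 KO line and C57BL/6 and about 8 weeks for the AMPKα2 KO line. No age is stated for the WT mice. Background, age and genotype therefore cannot be told apart here.

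The libraries held 2311242 to 3549156 reads. Reads assigned to no gene made up 1.88% to 2.85% of an AMPKα1 library and 15.3% to 17.9% of an AMPKα2 library. The most abundant gene was the fast myosin Myh4 or the troponin Tnnc2 in AMPKα1 and an 18S ribosomal RNA gene, with 11.6% to 17.0% of the reads, in AMPKα2. The models thus differed in much besides genotype, and levels of KO and WT are compared here within a model. Only fits of all 8 libraries, named as such, scale the models together. Reads of Prkaa1 numbered 0 and 82 (AMPKα1 KO) and 15 and 0 (AMPKα1 WT), and those of Prkaa2 numbered 40 and 71 (AMPKα2 KO) and 87 and 62 (AMPKα2 WT). By the study, both deletions took out codons of the catalytic domain. None of the Prkaa2 APSs lies between the deleted codons, so their reads check no label. The 82 Prkaa1 reads of the library labelled AMPKα1 KO 2 lie in an intron between deleted codons (chr15 position 5163362, plus strand). They go against that label if the whole stretch was removed, and whether its introns were is not given in the sources used here, so the leading AMPKα1 results are also given without this library. All 10 skeletal muscle markers were detected in every library.

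Mammalian mitoribosomes translate a small set of membrane proteins of the respiratory chain and ATP synthase, which mitochondrial DNA encodes. All their proteins are made from nuclear genes in the cytosol and imported. Part of them have bacterial counterparts and part are found in mitochondria but not in bacteria, and skeletal muscle, being rich in mitochondria, needs them to keep its respiratory chain. Symbols follow older naming: the products of Mrps18a and Mrps30 sit in the large subunit, and the product of Mrps36 is now known as a subunit of the α-ketoglutarate dehydrogenase complex. Counts by subunit below follow the symbol.

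The bases just upstream of the main APS describe the places where reads of these genes end. Below are 30 bases of the reference (GRCm38, from GENCODE transcripts) that end at the main APS, read 5′ to 3′ on the strand of the gene. Capitals mark the polyadenylation signal AATAAA or its common variant ATTAAA. The first 4 are main sites of members with the most reads, and the next 5 are those of members that lead the comparisons below.
Mrpl42, chr10:95480805-95480834, minus strand: taggaaaaAATAAAaataccctttcatgta
Mrpl14, chr17:45698456-45698485, plus strand: gtggagcagAATAAAtgttttaatgtatgt
Mrpl33, chr5:31622615-31622644, plus strand: cttAATAAAaaaatatcaaaatagtctata
Mrpl12, chr11:120488728-120488757, plus strand: gggagtataaaggaccacctggaggcatgt
Mrpl2, chr17:46650106-46650135, plus strand: actctAATAAAatgtctcttgtttttatct
Mrpl4, chr9:21008805-21008834, plus strand: taaaAATAAAccctatttttcacaagactt
Mrpl48, chr7:100549120-100549149, minus strand: tctccacctAATAAAtgtctgctgttgcca
Mrps17, chr5:129718229-129718258, plus strand: gtgacATTAAAagtagtcagcaaagtaaag
Mrpl15, chr1:4776376-4776405, minus strand: gtATTAAAgctttgggtctgttaccagcct

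Of 56 main member sites whose 30 upstream bases could be read from a transcript, 32 held AATAAA (57.1%), 12 held ATTAAA without AATAAA (21.4%) and 12 held neither (21.4%). Over 7219 main sites of other protein coding genes, the shares were 51.5%, 13.3% and 35.2%. The hexamer began a median of 23 bases before the APS (range 14 to 28 bases, 44 sites). Mrpl12, whose protein forms the mobile stalk of the large subunit, is among the main sites with neither hexamer. Only the sense strand was searched, a window with both hexamers was counted under AATAAA, and a match is a description of the letters.

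Weaker sites looked different. Of 41 weaker member sites with readable bases, 6 held AATAAA (14.6%), 4 held ATTAAA alone (9.76%) and 31 held neither (75.6%), beside 20.0%, 7.35% and 72.6% of 11760 weaker sites of other protein coding genes. These windows are limited to sites that fall within annotated transcripts, so intronic and downstream sites were mostly not read.

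Members had few APSs. There were 29 members with 1 APS, 24 with 2, 13 with 3, 6 with 4 and 2 with 5. More than 1 APS was found in 45 of 74 members (60.8%, 95% Wilson interval 49.4% to 71.1%), beside 66.0% of 12237 other protein coding genes. The mean was 2.03 APSs per member and 3.70 per other protein coding gene, although the median read total over the 8 libraries was 740 for a member and 247 for the others. The split by subunit was alike, with more than 1 APS in 27 of 46 large subunit and 18 of 28 small subunit genes. The 2 members with 5 APSs were Mrpl10, whose protein anchors the stalk, and Mrpl48, which has no bacterial counterpart.

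**Figure D1:**
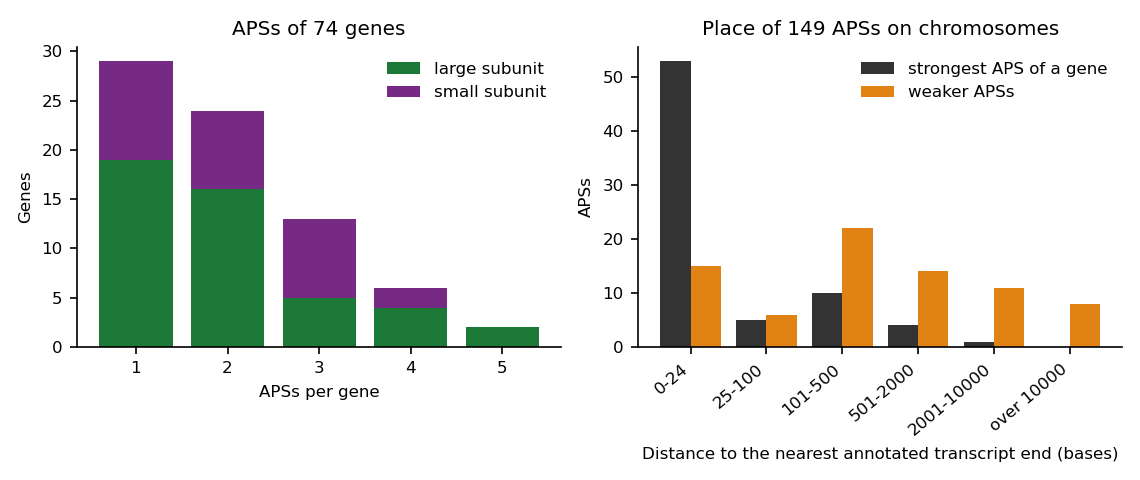
Left, number of genes (y axis) by number of APSs per gene (x axis), stacked by subunit. Right, number of APSs (y axis) by distance in bases to the nearest annotated transcript end (x axis), for the strongest APS of each gene and for the weaker ones; 53 of 73 strongest and 15 of 76 weaker APSs lay within 24 bases of an end.

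The main site usually sat at an annotated end. Of the 73 main APSs on assembled chromosomes, 53 lay within 24 bases of a GENCODE transcript end, 24 bases being the clustering window of the study, and the median offset was 2 bases downstream. Only 15 of 76 weaker APSs did so. Exons held 97 of the 150 sites, introns 26, and the 2000 bases past the gene end 21, while 5 lay on the opposite strand and 1 on a scaffold outside the chromosomes. By reads, exonic sites held 81.4%, downstream sites 15.1% and intronic sites 3.09%. In members with more than 1 APS the main site took a median of 84.2% of the reads.

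Among 39 members with several APSs and at least 50 reads in each model, the leading site differed between the models in 4: Mrpl35, Mrpl45, Mrpl49 and Mrps9, named after their values were seen. The same share over all genes was not computed. Mrpl45, whose protein tethers the mitoribosome to the inner membrane, shows the difference best. Its distal site on chromosome 11 had 325, 61, 114 and 267 reads in the libraries labelled AMPKα1 KO 1, KO 2, WT 1 and WT 2 and 23, 27, 44 and 13 in AMPKα2 KO 1, KO 2, WT 1 and WT 2. Its proximal site had 89, 110, 60 and 195 reads in the same AMPKα1 libraries and 22, 57, 64 and 50 in the AMPKα2 libraries. The distal site thus led in 3 of 4 AMPKα1 libraries and the proximal site in 3 of 4 AMPKα2 libraries, and KO and WT did not separate in either model. The pair is shown because only the distal window holds a signal. Whether the proximal site is an RNA end was not tested.
Mrpl45 distal, chr11:97329080-97329109, plus strand: tggAATAAAatactgtcaaagagttggata
Mrpl45 proximal, chr11:97328705-97328734, plus strand: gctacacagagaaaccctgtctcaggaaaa

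The steadiness of the main site was counted in members only, and the same share over all genes was not computed. Over all sites tested, the biological coefficient of variation was 156% in AMPKα1 and 38.8% in AMPKα2. Among members with several APSs and at least 10 reads in every library, the same site led in all 4 libraries for 21 of 37 members in AMPKα1 and for 28 of 35 in AMPKα2. This was not tested, and which libraries are deeper for these genes differs between the models, since members held 14498 to 19568 reads in an AMPKα1 library and 2661 to 5939 in an AMPKα2 library.

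Levels are given in CPM (reads of a gene per 1e6 reads), scaled by TMM factors within each model. The range was wide: totals over the 8 libraries ran from 19 reads for Mrps35 to 8731 for Mrpl42, and the 5 members with the most reads, Mrpl42, Mrpl14, Mrpl33, Mrpl12 and Mrpl51, held 31.4% of all 83076 member reads. All 5 are large subunit genes, and the large subunit took 76.4% to 82.6% of member reads in every library. Mrpl42 stood at 613 and 608 CPM in AMPKα1 KO and 667 and 722 CPM in WT, and at 70.8 and 54.3 CPM in AMPKα2 KO and 71.0 and 77.9 CPM in WT. Its KO libraries lay below its WT libraries in both models, but by less than the test could separate (adjusted p = 0.999 and 0.833, edgeR). Reads in every library were found for 65 of the 74 members.

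**Figure D2:**
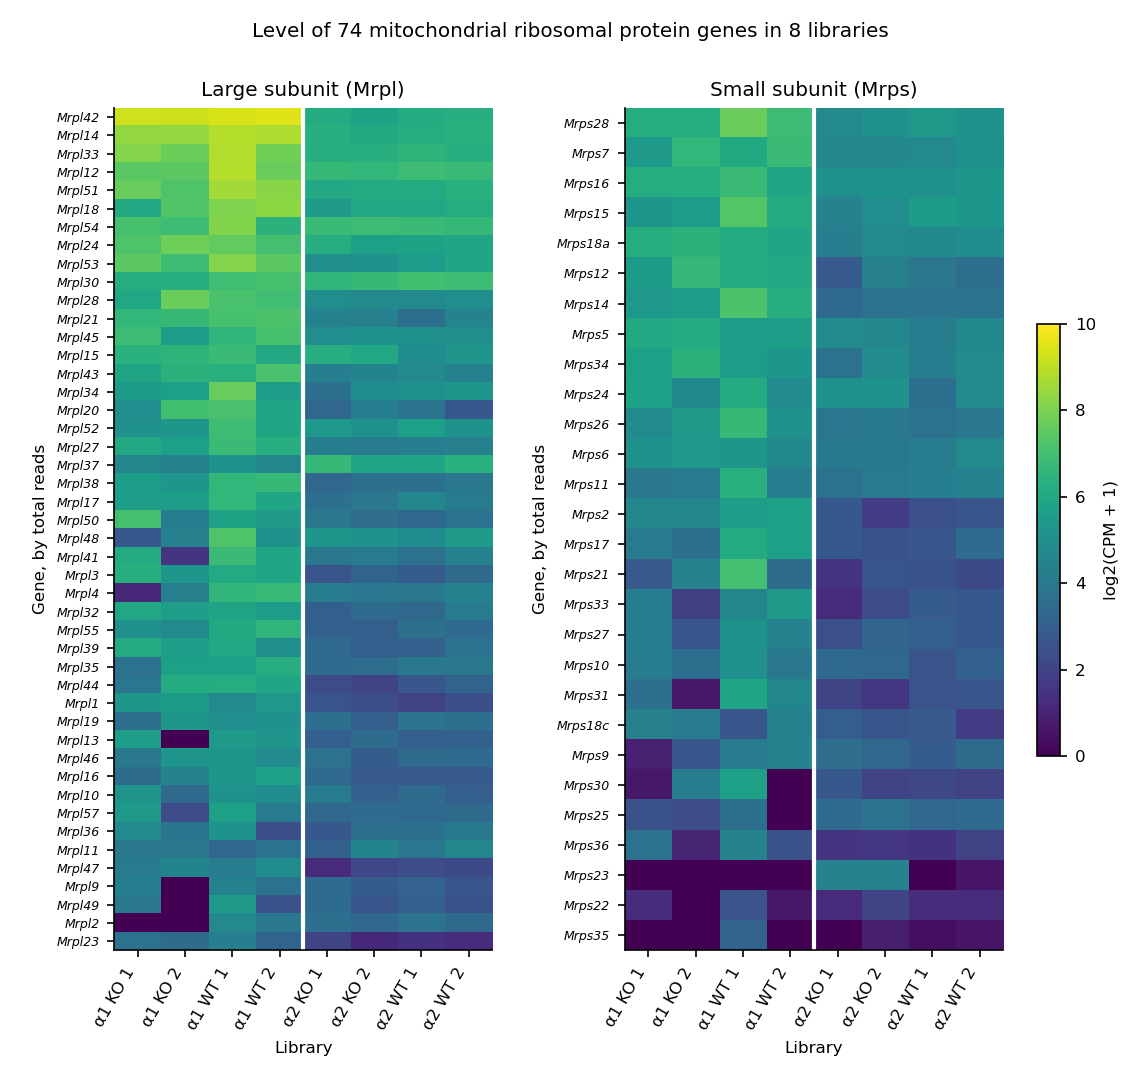
Level of each of the 74 genes (rows, ordered by total reads) in each of the 8 libraries (columns) as log2(CPM + 1), for large subunit genes on the left and small subunit genes on the right, with a white line between the models. CPM were scaled within a model, and dark cells are genes at or near 0, such as Mrpl2 in AMPKα1 KO and Mrps23 outside AMPKα2 KO.

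In AMPKα1, no member passed the test, and most were nevertheless fitted lower in KO muscle. Of 72 members tested, 58 had a lower fitted level in KO than in WT (80.6%, beside 51.1% of all genes tested), with a median log2 fold change of −0.64 (quartiles −1.36 and −0.24), beside −0.03 over all genes. Summed over members, the level was 4457 and 4541 CPM in KO and 7915 and 5671 CPM in WT, and the groups did not overlap. In bulk muscle, fewer cells of a type and less RNA per cell cannot be told apart. edgeR called 0 members at adjusted p under 0.1 (background 0% of 13941 genes), and at an unadjusted p under 0.05 it had 9 members, all lower in KO (12.5%, background 4.21%). DESeq2 called 1 member, Mrpl2 (background 1.23%). The median rests in part on WT 1: without that library it was −0.26, and 44 of 71 members were lower. Without the library labelled KO 2, it was −0.57, beside −0.24 over all genes, 54 of 72 members were lower and edgeR called 0.

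By subunit as named in the symbol, no gene passed the test, and the fitted directions were counted. Of large subunit genes, 38 of 46 were fitted lower (median −0.56), and of small subunit genes 20 of 26 (median −1.02). Of genes with a bacterial counterpart, 35 of 46 were lower (median −0.50), and of the mitochondria-specific ones 23 of 26 (median −0.79). All KO libraries lay below all WT libraries in 28 members (background 18.9% of genes) and above them in 4, Mrpl11, Mrps18a, Mrps34 and Mrps5 (background 13.6%).

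**Figure D3:**
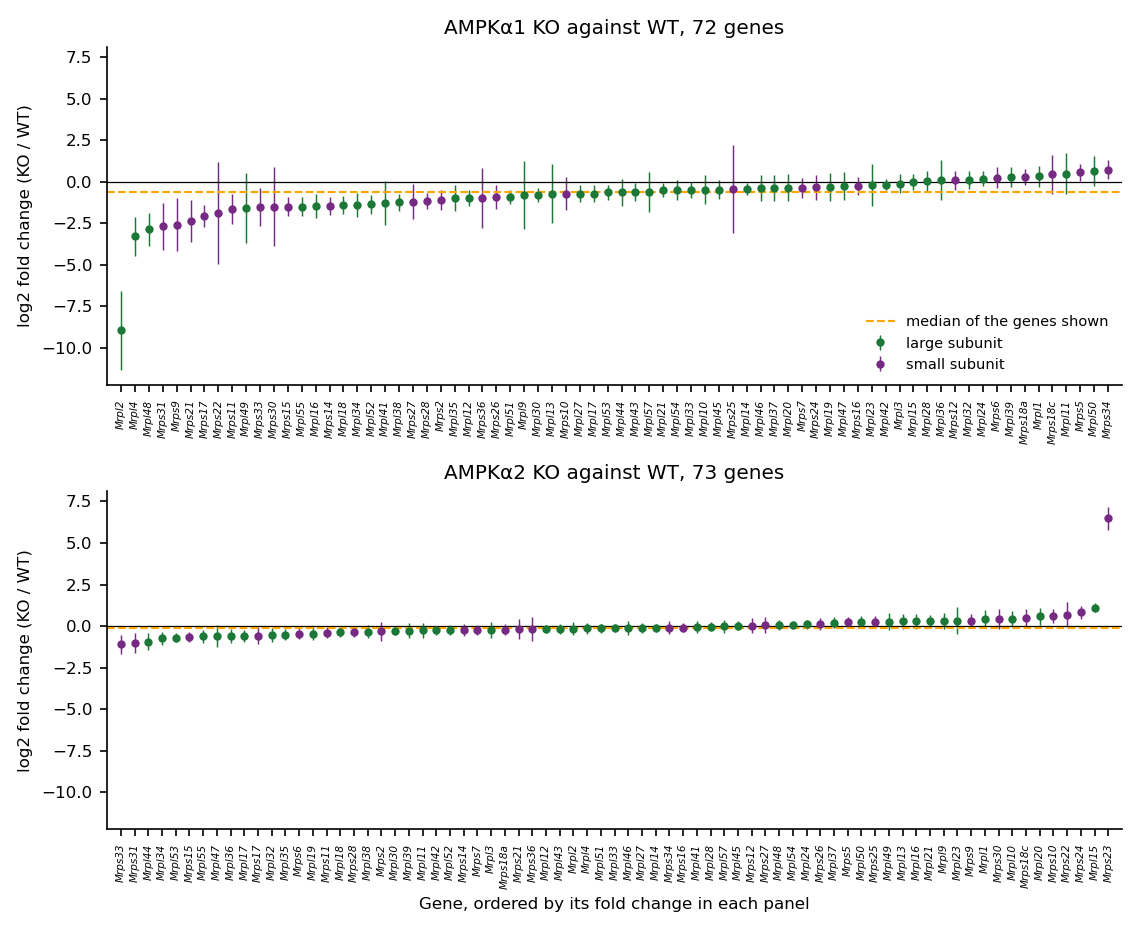
Fitted log2 fold change of KO over WT (y axis) of each member tested, ordered within each panel (x axis), for AMPKα1 (top, 72 genes) and AMPKα2 (bottom, 73 genes). Points are edgeR estimates, bars are standard errors and the dashed line is the median of the genes shown; in AMPKα1 most points lie below 0 and Mrpl2, with no KO reads, has no fitted fold of definite size, while in AMPKα2 most lie near 0 and Mrps23 stands alone at the top.

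Mrpl2, a protein close to the peptidyl transferase centre and one of the most conserved of the large subunit, was read 46 and 51 times in the AMPKα1 WT libraries and 0 times in each KO library. In AMPKα2 its reads were 18 and 24 (KO) and 44 and 21 (WT). The gene was thus absent from both AMPKα1 KO libraries and present in all 6 others. Counting 3 reads as the limit that 0 allows over the group, it was at least 43.7-fold lower in AMPKα1 KO. That limit covers counting error only and not the spread between mice. The adjusted p was 0.763 by edgeR and 0.0531 by DESeq2, and 0.0449 by edgeR with all 8 libraries in the fit. All its AMPKα1 reads came from the APS at chr17 position 46650135, an exonic site 3 bases past the end of an annotated transcript and still within the gene (chr17:46646229-46650139), whose sequence is printed above. Among 130 single member sites tested by edgeR in AMPKα1, 0 were called (background 0.00454% of 44024 sites). DESeq2 called that of Mrpl2 (adjusted p = 0.0608, background 1.37% of 15869 sites given an adjusted p). The call for the gene thus depends on the method.

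Mrpl4, whose bacterial counterpart lines the exit tunnel for the growing chain, was read 4 and 70 times in KO libraries and 174 and 363 times in WT libraries. The groups did not overlap, but the KO libraries differed from each other by more than 10-fold, at 1.14 and 19.3 CPM (log2 fold change −3.28, SE 1.17, adjusted p = 0.763, edgeR). Reads of Mrpl48 numbered 20 and 71 (KO) and 280 and 114 (WT), again without overlap (log2 fold change −2.87, SE 0.99, adjusted p = 0.763). All 20 reads of KO 1 came from an intronic site, and its main site had 0, 71, 204 and 76 reads in the libraries labelled KO 1, KO 2, WT 1 and WT 2. Without the library labelled KO 2, the log2 fold changes were −6.41 for Mrpl4 and −4.02 for Mrpl48 (adjusted p = 0.371 and 0.442, edgeR), and for Mrpl2 the adjusted p was 0.389.

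Mrps17, a small subunit protein with a bacterial counterpart, was at 15.9 and 11.9 CPM in KO and 68.2 and 49.3 CPM in WT, with both KO libraries well below both WT libraries (log2 fold change −2.08, SE 0.66, adjusted p = 0.763). Mrpl55 was at 31.9 and 24.9 CPM in KO and 66.6 and 92.7 CPM in WT (log2 fold change −1.49, SE 0.55). Mrps15 was at 36.7 and 45.3 CPM in KO and 161 and 70.7 CPM in WT (log2 fold change −1.49, SE 0.58). For these last 2 genes the groups were separate too, and the adjusted p was again 0.763. Without the library labelled KO 2, the log2 fold changes of Mrps17 and Mrpl55 were −1.88 and −1.33.

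Of members fitted higher in KO, those with the lowest p follow, and none passed the test. Mrps34, a mitochondria-specific protein of the small subunit, was at 50.05 and 84.5 CPM in KO and 43.7 and 37.7 CPM in WT (log2 fold change 0.73, SE 0.56, adjusted p = 0.806). Mrps5, a small subunit protein that in bacteria bears on decoding accuracy, was at 64.3 and 69.3 CPM in KO and 43.7 and 46.1 CPM in WT (log2 fold change 0.57, SE 0.51, adjusted p = 0.880). Mrps18a had a log2 fold change of 0.29, and for Mrpl1 (0.33) and Mrpl50 (0.65) the groups overlapped. Mrpl11, a protein at the base of the stalk, is named for its separate groups and not for its p. It was at 14.8 and 14.6 CPM in KO and 8.73 and 12.2 CPM in WT (log2 fold change 0.49, SE 1.24, adjusted p = 0.999). Mrpl50 had 461 reads in KO 1 and 65 in the library labelled KO 2, and its fitted direction turned without KO 1. Without the library labelled KO 2, Mrps34 was at 0.30 and Mrps5 at 0.51 on the log2 fold change scale.

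**Figure D4:**
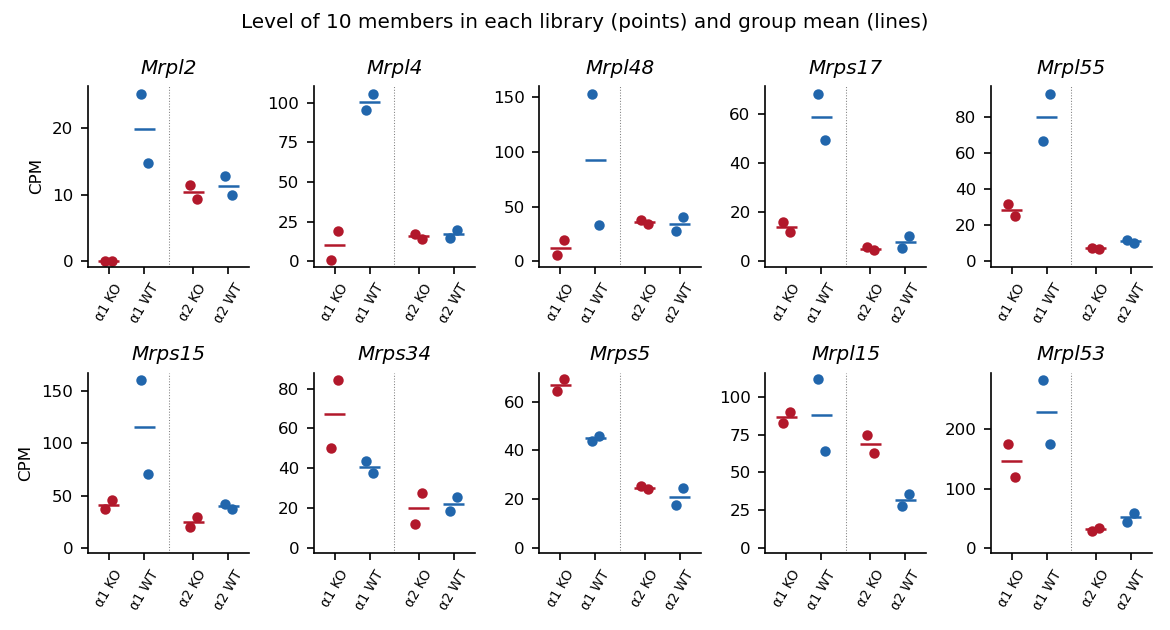
Level in CPM (y axis, from 0) of 10 members in each library, as points, with the mean of each group of 2 libraries as a line, KO in red and WT in blue (x axis). Mrpl2, Mrpl4, Mrpl48, Mrps17, Mrpl55 and Mrps15 separate in AMPKα1 with KO lower, Mrps34 and Mrps5 with KO higher, and Mrpl15 (KO higher) and Mrpl53 (KO lower) separate in AMPKα2.

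Replicates in AMPKα1 were far apart. The biological coefficient of variation over all genes was 104% in AMPKα1 and 26.2% in AMPKα2. Of members with at least 50 reads in one AMPKα1 KO library, 3 of 65 had 0 reads in the other: Mrpl13 with 164 and 0, Mrpl9 with 67 and 0, and Mrpl49 with 52 and 0, all of them 0 in the library labelled KO 2 (4.62%, background 11.9% of genes). In AMPKα1 WT, Mrps30 had 92 and 0 reads, as 1 of 66 (background 1.51%). No member did so in AMPKα2 (28 members in KO and 33 in WT, background 0.0734% and 0.0605%). The median gap between replicates, on the log2(CPM + 1) scale, was 0.56 and 0.59 in AMPKα1 KO and WT and 0.20 and 0.24 in AMPKα2 KO and WT. Over all genes with as many reads it was larger in each group, at 0.91, 0.70, 0.33 and 0.25.

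Summed marker levels of muscle and of some other cell types were lower in both AMPKα1 KO libraries too. The 10 skeletal muscle markers summed to 56789 and 73026 CPM in KO, in range order, and to 84697 and 125206 CPM in WT. The 3 Schwann cell markers summed to 458 to 566 CPM in KO and 627 to 1159 CPM in WT, the 5 fibroblast markers to 11117 to 11169 and 12223 to 15931 CPM and the 3 smooth muscle markers to 85.6 to 103 and 114 to 176 CPM. The sums of these 4 lists did not overlap between the groups, but single markers did not all follow. Myh7 went the other way, with 8421 and 5128 reads in KO 1 and KO 2 and 1220 and 2273 in WT 1 and WT 2. In CPM, markers such as Acta1, Ttn, Col1a1, Dcn, Myh11 and Tagln overlapped. Others such as Myh4, Tnnt3, Col1a2, Acta2 and those of Schwann cells separated with KO lower. The 5 adipocyte markers found of 6 summed to 8128 to 8787 CPM in KO and 8969 to 11949 CPM in WT, but most of these reads were of Car3, which muscle also expresses. Without Car3 the other 4 summed to 562 and 2155 CPM in KO and 804 and 559 CPM in WT and overlapped. The sums of the erythroid, macrophage, endothelial and satellite cell lists were 485 to 886, 74.8 to 160, 109 to 174 and 0 to 28.7 CPM in KO and 567 to 1184, 156 to 165, 162 to 214 and 0 to 10.9 CPM in WT. Of the markers found in the table, only Cd68 of the macrophage list was at 0 in both AMPKα1 KO libraries. The part of these differences in the member result was not tested.

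Genes of the same pathway stood as follows in AMPKα1. Over all genes tested there, 51.1% were fitted lower in KO, edgeR called 0% and DESeq2 called 1.23%. Of 78 nuclear oxidative phosphorylation genes, which encode the imported partners of the proteins that mitoribosomes make, 74 were fitted lower in KO (median −0.83), and edgeR called 0 and DESeq2 3. Of 64 cytosolic ribosomal protein genes tested, 39 were lower (median −0.14), with 0 and 2 calls. Of 6 mitoribosomal proteins with other symbols, 5 were lower (median −0.87, 0 calls by either tool), and the lowest p was that of Aurkaip1, a small subunit protein, with 89 and 112 reads (KO) and 276 and 277 reads (WT) (log2 fold change −2.03, SE 0.56, adjusted p = 0.763). Of 16 mitochondrial translation factors 10 were lower (median −0.51), with Tufm, the elongation factor that delivers aminoacyl-tRNA, at 97 and 188 reads (KO) and 226 and 343 reads (WT) (adjusted p = 0.763). Of 17 assembly factors 11 were lower (median −0.38), and Nsun4, a methyltransferase of the small subunit RNA, was read 6 and 80 times in WT libraries and not in KO libraries (adjusted p = 0.763).

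In AMPKα2, Mrps23 passed the test with more reads in KO, all at a site outside the chromosomes, and no other member passed. edgeR called 1 of 73 members (background 0.673% of 10552 genes, or 0.37% with KO higher), and DESeq2 called the same 1 (background 1.18%). At an unadjusted p under 0.05 there were 4 members, 2 of them lower in KO (5.48%, background 8.51%). Of the 73, 45 were fitted lower in KO (61.6%, beside 50.4% of all genes), with a median log2 fold change of −0.12 (quartiles −0.34 and 0.24), beside −0.00 over all genes. The summed level was 1697 and 1707 CPM in KO and 1736 and 1869 CPM in WT, a mean of 1702 ± 6.78 against 1802 ± 93.7 CPM (SD, n = 2). The large subunit had 30 of 46 lower (median −0.13) and the small subunit 15 of 27 (median −0.10). KO libraries lay below all WT libraries in 22 members (background 20.7%) and above them in 5 (background 18.6%). The 10 skeletal muscle markers summed to 72706 and 106626 CPM in KO, in range order, and to 58126 and 59866 CPM in WT. The sum was higher in KO here, but single markers such as Mylpf and Myh1 overlapped. Of the other marker lists only that of satellite cells separated, and this rests on 1 read in each WT library. Pax7, its 1 marker found, was at 0 in both KO libraries and at 0.292 and 0.472 CPM in WT. The part of these marker differences in the member result was not tested.

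Mrps23, a mitochondria-specific protein of the small subunit, was read 32 and 54 times in AMPKα2 KO libraries and 0 and 1 times in WT libraries, with 0 reads in each of the 4 AMPKα1 libraries. It was thus read in the AMPKα2 KO mice and nearly nowhere else. Scaled reads at its only APS, outside the chromosomes, were 116 times as high in KO as in WT (exact 95% interval 20.3 to 4630, counting error only). The log2 fold change was 6.48 (SE 0.71, adjusted p = 0.00172, edgeR). The adjusted p was 0.0012 by DESeq2 and 0.921 with all 8 libraries in one fit. Among 94 single member sites tested by edgeR, the Mrps23 site alone was called (adjusted p = 0.0928, background 0.056% of 23218 sites). DESeq2 did not call this site or any other of a member (background 2.16% of 4441 sites given an adjusted p). The site was no longer called without KO 1, KO 2 or WT 2, where edgeR called 0 member sites, while the gene was called in each of these fits.

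The reads counted for Mrps23 were not assigned to its place on chromosome 11. GENCODE puts the gene at chr11:88204388-88211507 on the plus strand, but its only APS in the table lies on a scaffold outside the assembled chromosomes, at position 1347910 of that scaffold, and no chromosome 11 site of Mrps23 is in the table. The scaffold holds 11 sites, and 5 of the 13 sites called in AMPKα2 over the whole table lay outside the chromosomes, 2 of them on this scaffold. Its other genes were examined after the values of Mrps23 were seen. Cuedc1, from the same stretch of chromosome 11, had 100 and 256 reads there in AMPKα2 KO, 1 and 0 in WT and 0 or 1 in each AMPKα1 library. Dynll2, a dynein light chain gene with sites in both places, had 13 and 31 scaffold reads in AMPKα2 KO and 1 and 0 in WT, while its chromosome 11 site had no reads in KO and was read 24 and 18 times in WT. Its reads thus lay on the scaffold in one group and on chromosome 11 in the other. The scaffold sites of Srsf1 (6 and 10 reads in KO, 14 and 8 in WT) and Akap1 (1 and 8, 3 and 5) showed no such split. Those of Rnu3b1 (11 and 7 in KO, 23 and 16 in WT) and 4930556N13Rik (0 and 2, 7 and 2) showed none either. Msi2 had 4 and 9 scaffold reads in KO and 1 and 2 in WT, and on chromosome 11 had 2 and 7 in KO and 24 and 11 in WT. Whether the Mrps23 difference is one of RNA level or of where the reads of a mouse mapped was not tested.

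**Figure D5:**
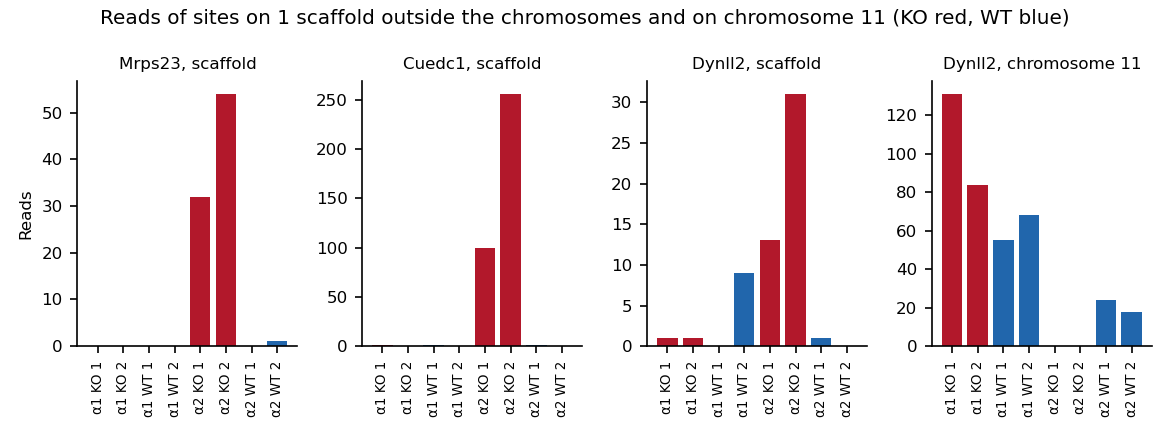
Reads (y axis, from 0, each panel with its own scale) in each of the 8 libraries (x axis) at sites on 1 scaffold outside the chromosomes, for Mrps23, Cuedc1 and Dynll2, and at the chromosome 11 site of Dynll2. Mrps23 and Cuedc1 have reads almost only in the 2 AMPKα2 KO libraries, where the chromosome 11 site of Dynll2 has 0.

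The next members did not pass the test. Mrpl15, a large subunit protein with a bacterial counterpart, was read 117 and 160 times in AMPKα2 KO libraries and 96 and 76 times in WT libraries, or 74.6 and 62.9 CPM and 28.1 and 35.9 CPM. The groups did not overlap, and the log2 fold change was 1.11 (SE 0.27, adjusted p = 0.191, edgeR, and 0.0145 with no filter on low counts). In AMPKα1 it stood at 82.8 and 90.03 CPM in KO and 112 and 64.3 CPM in WT. Mrps24 was at 31.2 and 34.2 CPM in AMPKα2 KO and 11.1 and 26.9 CPM in WT (log2 fold change 0.82, SE 0.40, adjusted p = 0.615). Mrps10 (0.60) and Mrpl20 (0.58) followed, and the Mrpl20 libraries overlapped.

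On the lower side, Mrpl53, a mitochondria-specific large subunit protein, was at 29.3 and 33.8 CPM in AMPKα2 KO and 44.1 and 58.5 CPM in WT (log2 fold change −0.69, SE 0.28, adjusted p = 0.535). Mrps15 was at 20.4 and 29.1 CPM in KO and 42.4 and 37.3 CPM in WT (log2 fold change −0.67, SE 0.29, adjusted p = 0.567). Both genes separated KO from WT in this model and had a lower fitted level in AMPKα1 KO as well. Mrpl34 (−0.74), Mrps33 (−1.10) and Mrpl44 (−0.95) also lay lower in both KO libraries than in either WT library, Mrps33 and Mrpl44 on 2 to 22 reads a library.

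Related lists in AMPKα2 gave few calls. Over all genes tested there, 50.4% were fitted lower in KO and edgeR called 0.673%. edgeR called 0 of 77 oxidative phosphorylation genes (45 lower, median −0.08), 0 of 6 mitoribosomal proteins with other symbols (4 lower), 0 of 14 translation factors (8 lower) and 0 of 13 assembly factors (7 lower). Ict1, a release factor built into the large subunit, was at 26 and 53 reads (KO) and 95 and 70 reads (WT) (log2 fold change −0.68, SE 0.30, adjusted p = 0.567). Of 60 cytosolic ribosomal protein genes 39 were lower (median −0.14), and edgeR called Rpl3 and Rpl11 lower in KO. For Rpl3, KO counts were 1 and 0 beside WT counts of 202 and 86 (adjusted p = 4.1e-04, edgeR). For Rpl11, KO counts were 0 and 1 beside WT counts of 134 and 75 (adjusted p = 3.9e-04, edgeR). Both genes were thus nearly unread in KO, like the chromosome 11 site of Dynll2. Whether RNA level or the mapping of reads differed for these genes was not tested. No mitochondrial ribosomal protein gene fell by the test in AMPKα2 (background 0.303% of genes).

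The KO effects of the models were set against each other in one fit of the 8 libraries. TMM factors in that fit were 1.53 to 2.14 in AMPKα1 libraries and 0.40 to 0.62 in AMPKα2 libraries. edgeR called 0 of 74 members (background 0.065% of 15378 genes), with 4 members at an unadjusted p under 0.05 (background 6.98%), and DESeq2 called 1, Mrpl2 (background 1.6%). For Mrpl2 the adjusted p was 0.110 by edgeR and 0.00372 by DESeq2. Without AMPKα1 KO 1 edgeR called 6 members (Mrpl2, Mrpl9, Mrpl13, Mrpl41, Mrpl49 and Mrps31, named after their values were seen, background 3.72% of genes in that fit), and without the library labelled AMPKα1 KO 2 it called 3 (Mrpl2, Mrpl4 and Mrps9, background 3.13%), the lone remaining KO library being assumed to vary like the other groups. Mrpl48 and Mrpl4 followed, with log2 differences of 2.92 (SE 1.05, adjusted p = 0.602) and 3.13 (SE 1.25, adjusted p = 0.666). The effect of KO in AMPKα2 was fitted above that in AMPKα1 in 56 of 74 members, with a median difference of 0.62, beside 0.04 over all genes. Of 72 members fitted in each model, 37 were lower in both KO groups, 21 in AMPKα1 KO alone, 8 in AMPKα2 KO alone and 6 in neither. The same split over all genes was not computed, so the 37 are not read as agreement between the models. By the methods the KO lines also differ in strain and age, so line and deleted gene cannot be told apart.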

How the data were processed

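Raw whole-number counts of reads per APS were used as deposited. By the study's methods, the authors sequenced on an Ion PGM, trimmed leading Ts, mapped reads with TMAP to the mouse genome (GRCm38.p5 in the submitters' processing notes), clustered read starts within 24 bases, assigned APSs with Cuffcompare and dropped those under 16 reads in all 8 libraries together. Counts were summed per gene over its APSs. APSs assigned to no gene (9.33% of reads) stayed out of the gene sums.

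KO was compared with WT within each model by the edgeR 4.0.16 quasi-likelihood test (TMM, robust) over all genes, or sites, with at least 16 reads in the libraries fitted, with Benjamini-Hochberg adjustment and a threshold of 0.1. SEs were derived from the F statistic. DESeq2 1.42.0 was an alternative. The scripts were tested on simulated data. Members and lists were chosen with earlier results of these data known. Named are members called by either tool, the 5 lowest p per model and direction, the 5 with the most reads and most APSs, members read in 1 replicate alone, and the 3 lowest p of the interaction, and of related lists those called and the lowest p. Mrpl11 was named for its separate groups in AMPKα1. Intervals and limits for 0 reads cover counting error only. With 1 library per mouse, p-values measure the spread between these samples, which may be technical in part.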

Additional observations from a re-analysis of the deposited data

How the results depend on the processing

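Alternatives were DESeq2, RLE or library-total scaling, no filter, at least 50 reads, a replicate block, all 8 libraries in the fit, strand-matched or strongest sites, an adjusted p under 0.05, and each library left out. In AMPKα1 genes, the count of 0 called became 1 (Mrpl2) with DESeq2 and with all 8 libraries, and stayed 0 in each leave-out. In AMPKα2 genes, 1 became 2 with no filter (Mrpl15 and Mrps23) and 0 with all 8 libraries, and stayed 1 in each leave-out. The interaction went from 0 to 1 (Mrpl2) with DESeq2 and with strand-matched sites, and to 0 to 6 in the leave-outs, with 6 without AMPKα1 KO 1 and 3 without the library labelled AMPKα1 KO 2. For sites, AMPKα1 went from 0 to 1 (Mrpl2) with DESeq2 and with all 8 libraries and to 0 to 1 in the leave-outs (Mrps21 without WT 2). AMPKα2 sites went from 1 to 0 at 0.05, with DESeq2, at 50 reads and with all 8 libraries, and to 0 to 1 in the leave-outs (0 without KO 1, KO 2 or WT 2). The median in AMPKα1 was −0.38 with library totals (0.22 over all genes) and −0.86 to −0.26 in the leave-outs. The median in AMPKα2 was −0.31 with library totals (−0.19 over all genes) and −0.17 to −0.05 in the leave-outs. The counts of members fitted lower, recomputed after seeing the data, ran from 44 to 60 in AMPKα1 and 39 to 46 in AMPKα2 in the leave-outs. Directions turned for Mrpl50 in AMPKα1 (−1.41 without KO 1, up to 1.46 in the other leave-outs) and Mrpl20 in AMPKα2 (−0.11 without KO 2, up to 1.31). Of 307 values for 23 single-member results, 296 kept direction and side, 8 passed the threshold, 1 lost it and 2 turned. The causes were not tested.

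Replicate numbers name different mice, and their deviations correlated at 0.03 in AMPKα1 and −0.01 in AMPKα2. With the number as a replicate block the calls were 0 in AMPKα1 genes, 1 in AMPKα2 genes, 0 for the interaction, 0 in AMPKα1 sites and 1 in AMPKα2 sites, the medians were −0.66 and −0.12, and 58 and 47 members were lower. With 2 libraries a group and a coefficient of variation of 104%, small differences in AMPKα1 are not detectable.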
